A study of Mus musculus with 9 samples.

Results

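Chemokine and cytokine ligand genes were examined in sorted cells of mouse bile duct organoids. They were taken by name from the per-gene tables: chemokines (Ccl and Cxcl genes with a number, and Cx3cl1), numbered interleukins, Tnf and numbered members of its superfamily, and Csf1, Csf2 and Csf3. The rule found 57 of 32137 genes, which are 23 chemokines, 23 interleukins, 8 TNF superfamily genes and 3 colony-stimulating factors. Organoids from 1 male animal of mixed genetic background (Axin2CreERT2+/-; R26-LSL-tdTom+/-) were differentiated for 11 days. In this line Cre is driven by Axin2, a Wnt target gene, so that tdTom marks cells in which Axin2 was active while 4-hydroxytamoxifen (4-OHT) was present. Cultures of all groups received 500 nM 4-OHT and 3 uM dexamethasone, a glucocorticoid, for the last 24 h. The untreated group held tdTom-negative cells of organoids without R-spondin 1 (Rspo1), the Rspo1-negative group tdTom-negative cells of organoids given 100 ng/ml Rspo1, and the Rspo1-positive group tdTom-positive cells of the same treatment. Each of these 3 groups had 1 library at each of passages 5, 6 and 10, which makes 9 libraries of 23423979 to 37351448 counts. No group held tdTom-positive cells of organoids without Rspo1, so the treatment and the sort gate differ together between Rspo1-positive and untreated cells. All libraries trace back to the same animal, and p-values of the group comparisons measure the spread between repeated cultures.

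Chemokines are small secreted proteins that direct the movement of leukocytes through G-protein-coupled receptors. Interleukins, TNF superfamily proteins and colony-stimulating factors act on the survival, growth and activation of immune and other cells. Bile duct epithelium is known as a source of such ligands in inflamed liver, where ductular cells signal to neutrophils, macrophages and stellate cells. Many of these genes are targets of NF-kB, a transcription factor family that TNF and interleukin 1 activate and that its own inhibitors, such as Nfkbia and Tnfaip3, hold back. Glucocorticoids are known to lower the expression of many of them.

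Promoter sequence was taken from RefSeq (GRCm38.p6) for the 40 of 57 ligand genes with an entry, and the 250 bases before the transcription start were searched on both strands. The consensus site of NF-kB occurred in 10 of the 40 (25.0%), against 4.46% of 27025 genes. The AP-1 site TGANTCA occurred in 22.5% of the ligand genes and 7.82% of all genes, and the TCF/LEF letters CTTTGAA or CTTTGAT in 17.5% and 8.63%. Ligand genes without an entry, among them Ccl2, Cxcl5 and Il34, were not searched. The 10 genes with the NF-kB letters were Ccl20, Ccl9, Csf1, Cxcl1, Cxcl10, Cxcl2, Cxcl3, Il16, Il19 and Il6. Neighbouring stretches are shown for the 6 of these whose differences between groups or passages are described below. Each runs 5′ to 3′ on the strand of its gene with the NF-kB match in capitals.
Cxcl1 (chr5:90891154-90891223, plus strand): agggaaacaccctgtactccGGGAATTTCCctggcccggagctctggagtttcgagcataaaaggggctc
Cxcl2 (chr5:90903782-90903851, plus strand): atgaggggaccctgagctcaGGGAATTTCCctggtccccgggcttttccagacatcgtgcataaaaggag
Cxcl3 (chr5:90786008-90786077, plus strand): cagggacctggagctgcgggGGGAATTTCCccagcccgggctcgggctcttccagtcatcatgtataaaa
Csf1 (chr3:107760574-107760643, minus strand): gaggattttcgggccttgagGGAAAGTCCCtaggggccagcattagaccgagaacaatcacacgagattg
Ccl20 (chr1:83116666-83116735, plus strand): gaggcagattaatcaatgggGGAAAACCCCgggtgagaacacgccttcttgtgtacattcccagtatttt
Ccl9 (chr11:83578637-83578691, minus strand): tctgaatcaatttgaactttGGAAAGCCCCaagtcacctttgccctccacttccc
The match began 71, 97 and 73 bases before the start in Cxcl1, Cxcl2 and Cxcl3, and its letters were the same in all 3. These letters also match in reverse 1 base further on, and the matches of Csf1, Ccl20 and Ccl9 were on the reverse strand, 154, 80 and 35 bases before the start. A match describes the sequence and does not show binding.

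Of the 57 ligand genes, 36 had enough counts to be tested, 7 were below the filter on low counts, and 14 had at most 3 counts in every library. The 14 without expression at this depth were Cxcl9, Cxcl11, Cxcl12, Cxcl13, Il1b, Il2, Il5, Il6, Il9, Il13, Il17f, Il25, Tnfsf14 and Tnfsf18, where 3 counts equal 0.0739 to 0.127 CPM, counts divided by the scaled library total. Below the filter were Il19 (at most 5 counts in a library), Il24 (7), Il27 (12), Ccl5 (13), Ccl7 (15), Il17c (15) and Cxcl10 (17). The tables have no row for another 24 gene names of the same form, among them Ccl3, Ccl4, Il10, Il17a and Il22, which were not analysed here. The interferon-induced chemokines Cxcl9, Cxcl10 and Cxcl11, which attract T cells, thus stood at or near the floor in all groups. Of these, Cxcl11 is annotated as a polymorphic pseudogene, and 41.7% of its exon bases are shared with Gm2673 on the other strand. The inflammatory interleukins Il1b and Il6 were not detected, whereas Tnf was present in all 9 libraries. Il1a, also an interleukin 1 gene, was among the tested genes at a low level, with 8 to 67 counts in a library (mean 0.466 FPKM). It was called in no comparison.

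Levels between genes are compared as FPKM, a level per length of the gene and per depth of the library, as deposited. A mean of at least 1 FPKM over the 9 libraries was reached by 24 ligand genes, a mean of at least 10 by 6 and a mean of at least 100 by Cxcl5 alone; of all genes these levels were reached by 13535, 6162 and 608. Cxcl5, a neutrophil chemokine, had the highest level of the ligand genes in 8 of 9 libraries, and Cxcl16, a membrane-bound chemokine and scavenger receptor, in the Rspo1-negative library of passage 10. The highest gene made up 19.1% to 43.6% of the summed FPKM of all ligand genes in a library. After Cxcl5 (mean 135 FPKM) came Cxcl16 (60.6), Cx3cl1 (44.3), Cxcl17 (40.3), Il34 (29.5) and Tnfsf13 (20.9).

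**Figure D1:**
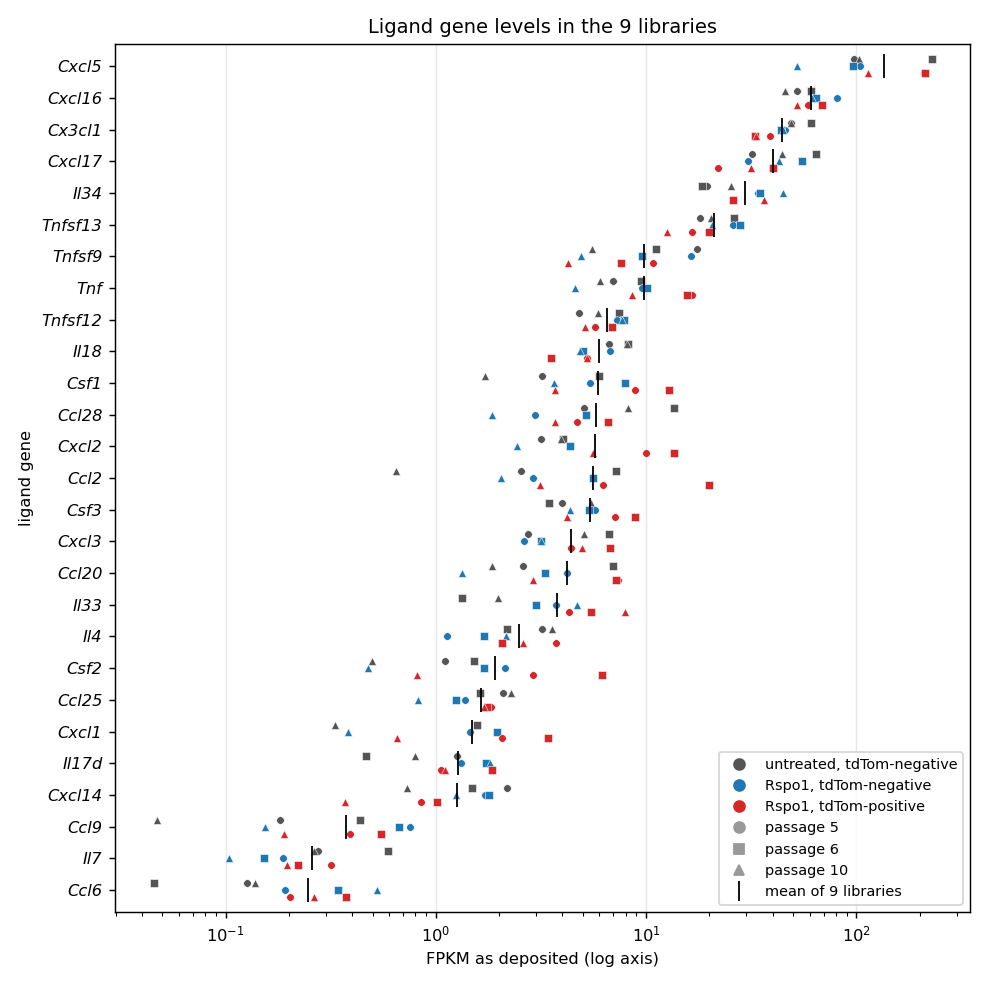
FPKM of 27 ligand genes in the 9 libraries on a log axis, with colour for the group, marker shape for the passage and a black tick for the mean of the 9 libraries. Genes are ordered by that mean, from Cxcl5 at 135 FPKM to Ccl6 at 0.246 FPKM, and the lowest points of Ccl2, Csf2 and Cxcl1 are those of passage 10 libraries.

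Markers of duct epithelium were high in every library, with a summed level of 5940 to 9150 FPKM over 9 genes such as Krt19 and Epcam. Of 16 immune cell markers 10 have a row, and their summed level was 18.8 to 28.9 FPKM in untreated, 18.2 to 29.2 in Rspo1-negative and 16.2 to 19.6 in Rspo1-positive libraries. Most of it came from Csf1r, Cd68 and Itgam, while Ptprc, the pan-leukocyte marker CD45, had at most 5 counts, Lyz2 and Cd3e at most 4 and 5, and S100a8 and Cd79a at most 3. The 8 fibroblast and stellate cell markers with a row summed to at most 0.192 FPKM (Lum at 0 counts in every library), and the 6 endothelial markers to at most 0.312 FPKM (Cdh5 at 0). Hepatocyte markers summed to 131 to 471 FPKM, nearly all of it Ttr. In sorted bulk samples, fewer cells of a kind and less RNA per cell cannot be told apart.

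Among the 17011 genes tested with edgeR's quasi-likelihood test, calls are those with a Benjamini-Hochberg adjusted p under 0.05. Because libraries of the same passage deviated together, a fit with passage as a block is given beside the fit by group. Rspo1-positive cells differed from untreated cells in 3 of 36 ligand genes: Il33 and Cxcl2 rose, where 3.07% of all genes rose, and Cx3cl1 fell, where 2.13% fell (5.21% in either direction). With the block, 14 were called (13.2% of all genes), 8 higher (6.44%) and 6 lower (6.77%). The median log2 fold change of the 36 was 0.16, against -0.01 for all genes, and 21 of them lay above 0. The 11 genes called only with the block had adjusted p of 0.000473 to 0.0432 in it, 0.123 to 0.652 without it and 0.000328 to 0.972 over all alternatives. Of the 13 alternatives for a group comparison, only the block and the block with a correction for GC content and length hold passage. The others, with every fit that leaves out a library, omit it. Ranges over the alternatives thus mostly describe fits without passage and do not test how firm a blocked call is.

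Within Rspo1 treatment, Cxcl2 was the ligand gene that rose in the Rspo1-positive against the Rspo1-negative cells, 1 of 36, where 24.3% of all genes were called, 14.6% higher and 9.78% lower. With the block 16 were called, 12 higher and 4 lower, against 38.9%, 21.5% and 17.4% of all genes. The median of the 36 was 0.22, that of all genes 0.03, and 19 lay above 0. The 15 called only with the block had adjusted p of 0.00289 to 0.0397 in it, 0.0504 to 0.499 without it and 0.000778 to 0.974 over all alternatives. In this comparison log2 fold changes fell with GC content across genes (Spearman's rho -0.518 over 17001 genes). With a GC and length correction added to the block, 6 ligand genes were called, all higher, so the 4 lower calls of the block were lost. The share of all genes called with this correction was not computed.

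Rspo1-negative cells differed from untreated cells in 5 ligand genes: Il33 and Il34 rose (8.0% of all genes were higher) and Ccl25, Il7 and Ccl28 fell (13.9% lower, 21.9% in either direction). With the block 10 were called, 5 in each direction, against 35.5% of all genes, 15.5% higher and 20.0% lower. The median of the 36 was 0.03, that of all genes -0.02, and 18 lay above 0. The 5 called only with the block had adjusted p of 0.0071 to 0.0408 in it, 0.0597 to 0.416 without it and 0.0071 to 0.74 over all alternatives. Here log2 fold changes rose with GC content (rho 0.509). With the correction for GC and length and no block 2 ligand genes were called, again without a computed share of all genes. In a fit of only the 6 libraries compared, Ccl25, Il7 and Ccl28 were not called (adjusted p 0.0805, 0.069 and 0.0517). The 3 group comparisons share libraries in pairs and are not independent of each other. In the authors' deposited tables, at the same threshold, 11, 17 and 6 of 27 listed ligand genes were called for these comparisons in the order given. They used DESeq2, and the labels do not state the model. Their counts are thus not like for like with those of the 36 genes tested here. The share of all genes called in the deposited tables was not computed, so these counts do not set the ligand genes apart from other genes.

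**Figure D2:**
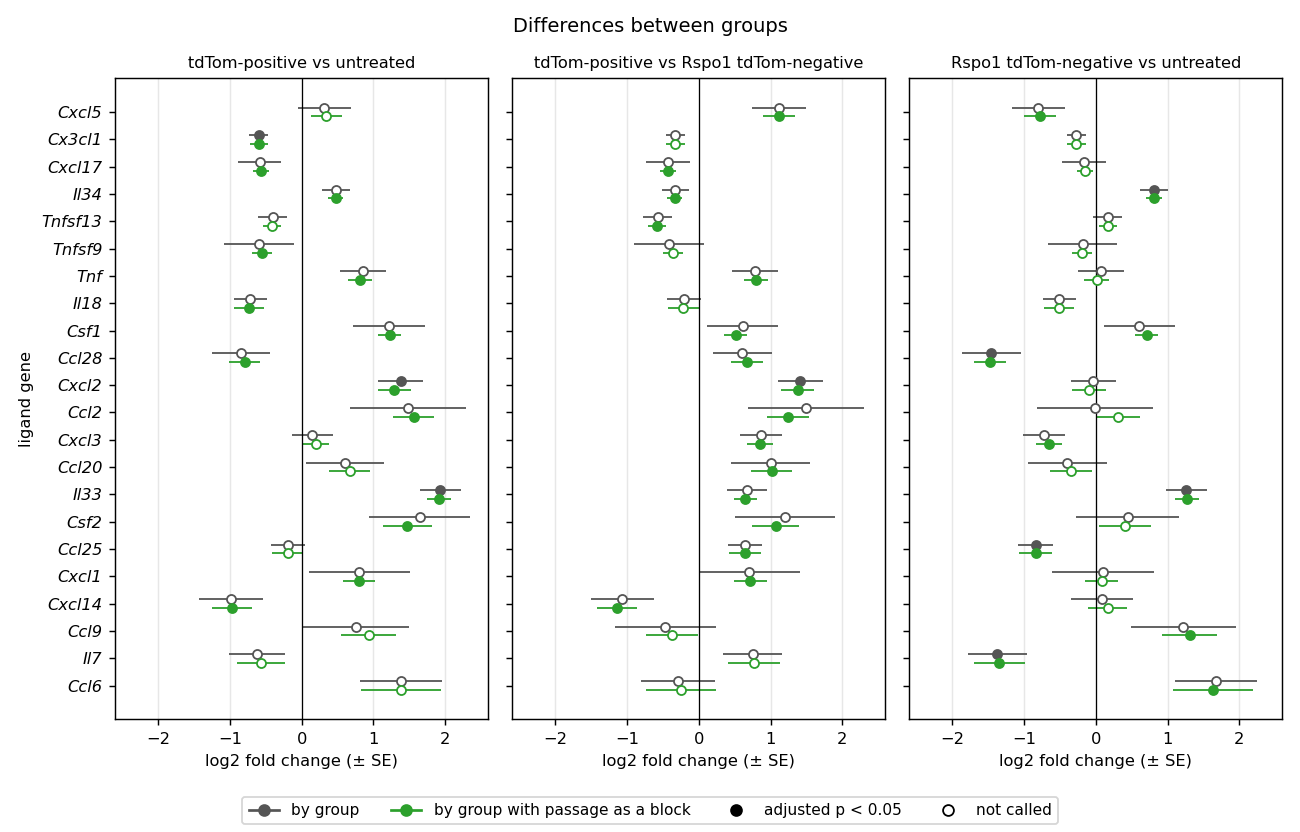
Log2 fold changes with SE for 22 ligand genes in the 3 comparisons of groups, by group alone (grey) and with passage as a block (green); filled points have an adjusted p under 0.05. The estimates of both fits lie close together and the bars of the blocked fit are the shorter ones for most genes; Il33 and Cxcl2 have filled grey points above 0 for Rspo1-positive against untreated cells, and Cx3cl1 has one below 0.

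Passage differences were tested across the 3 groups. Each passage was sampled once, so passage and the round of culture and sorting cannot be told apart. The 3 groups of a passage take the place of repeats in this fit. Its p-values thus measure how evenly the 3 groups differ between passages and not the spread between repeated cultures of a passage. From passage 5 to passage 6, 3 of 36 ligand genes changed (2.49% of all genes): Ccl2 and Cxcl17 rose (1.16%) and Tnfsf9 fell (1.33%). At passage 10, 11 differed from passage 5 (9.07% of all genes), with Il33, Il34 and Cxcl17 higher (4.57%) and Csf1, Csf2, Ccl9, Cxcl14, Tnf, Ccl20, Cxcl1 and Tnfsf9 lower (4.5%). Against passage 6, 14 differed (8.45%), with Il33 and Il34 higher (4.4%) and 12 lower (4.05%), namely Csf1, Csf2, Ccl9, Tnf, Ccl20, Cxcl1 and Tnfsf9 again and Cxcl5, Ccl2, Cxcl17, Ccl28 and Tnfsf13. The share of ligand genes called lower was 22.2% and 33.3% in the comparisons with passage 5 and passage 6, above the shares of all genes. Median log2 fold changes of the 36 were 0.10, -0.20 and -0.28 for passage 6 against 5, 10 against 5 and 10 against 6, where those of all genes were 0.00, 0.01 and 0.00. Summed immune markers were 19.6 to 29.2 FPKM at passage 5, 16.2 to 18.8 at passage 6 and 18.0 to 21.4 at passage 10, and their part in these differences was not tested.

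**Figure D3:**
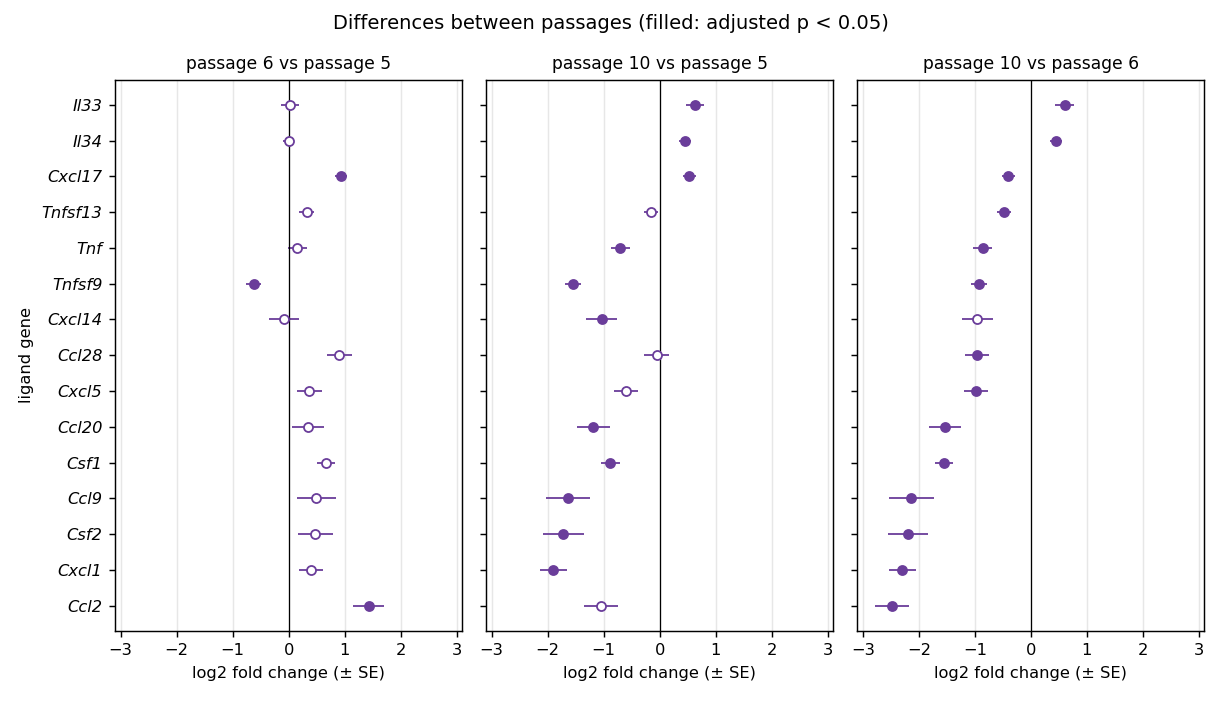
Log2 fold changes with SE between passages for the 15 ligand genes called in any of them, ordered by the difference between passage 10 and passage 6; filled points have an adjusted p under 0.05. Il33 and Il34 lie above 0 in both comparisons with passage 10, and Ccl2, Cxcl1, Csf2, Ccl9, Csf1 and Ccl20 are the lowest against passage 6.

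Most passage calls were lost in at least 1 fit that left out a library. Against passage 5, Cxcl1 and Tnfsf9 were called at passage 10 whichever library was left out. Il33 and Il34 were lost in all 6 such fits, Ccl9, Cxcl14 and Ccl20 each in 5, Tnf in 4, Csf2 in 3 and Csf1 in 2. Cxcl17 was kept only without the untreated library of passage 10. Of all 11 calls, 5 were lost without the untreated library of passage 5 and 5 without that of passage 10, 8 and 7 without the Rspo1-negative library of passage 5 or 10, and 8 without either Rspo1-positive library, at adjusted p up to 0.21. Against passage 6, Csf1, Ccl9, Ccl20, Cxcl1, Ccl2 and Tnfsf9 were called in every such fit. Of these 14 calls, 3 and 4 were lost without the untreated library of passage 6 or 10, 3 and 7 without the Rspo1-negative library of passage 6 or 10, and 4 and 8 without the Rspo1-positive library of passage 6 or 10, at adjusted p up to 0.216. Between passages 6 and 5, Cxcl17 was called in every such fit. Ccl2 was lost without any library of passage 5 or the Rspo1-positive library of passage 6, and Tnfsf9 without any library of passage 5 or either Rspo1 library of passage 6 (adjusted p up to 0.247).

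The CXC chemokines that attract neutrophils through the receptor Cxcr2 include Cxcl1, Cxcl2, Cxcl3 and Cxcl5, which lie within 90759360 to 90905938 of chromosome 5 (GRCm38). Cxcl2 was at 3.17, 4.02 and 3.94 FPKM in untreated cells at passages 5, 6 and 10, at 4.34, 4.36 and 2.44 in Rspo1-negative cells and at 9.94, 13.6 and 5.58 in Rspo1-positive cells. The lowest Rspo1-positive library was above the highest of the other 6. Relative to the Rspo1-negative library of the same passage, the Rspo1-positive level was 2.29, 3.13 and 2.28 times as high. Cxcl2 rose by a log2 fold change of 1.41 (SE 0.32, edgeR adjusted p = 0.011) against Rspo1-negative and 1.38 (SE 0.31, adjusted p = 0.0303) against untreated cells. The first call held in all 13 alternatives. The second was lost without any 1 of the untreated libraries or without the Rspo1-positive library of passage 5 or 6 (adjusted p 0.0555 to 0.145).

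Cxcl5, at 97.8, 228 and 103 FPKM in untreated, 104, 96.3 and 52.4 in Rspo1-negative and 210, 212 and 114 in Rspo1-positive cells, showed lower values in all Rspo1-negative than in all Rspo1-positive libraries. The difference between them, 1.12 (SE 0.37), had an adjusted p of 0.0504, and with the block 1.12 (SE 0.22, adjusted p = 0.00289, 0.000778 to 0.191 over the alternatives). The untreated library of passage 6 was above all Rspo1-positive ones and the other 2 untreated libraries below them, and Cxcl5 was not called between those groups. Cxcl3 was at 2.75, 6.66 and 5.05 FPKM in untreated, 2.64, 3.17 and 3.15 in Rspo1-negative and 4.41, 6.72 and 4.96 in Rspo1-positive cells. Its highest Rspo1-negative value was below its lowest Rspo1-positive value, and the difference of 0.87 (SE 0.29, adjusted p = 0.0514) was called with the block at 0.85 (SE 0.18, adjusted p = 0.00457, 0.00457 to 0.394 over the alternatives). Cxcl3 too was not called between Rspo1-positive and untreated cells. Cxcl5 and Cxcl3 were both called lower in Rspo1-negative than in untreated cells with the block and not by group. The blocked log2 differences were -0.78 for Cxcl5 (SE 0.22, adjusted p = 0.0187, 0.0187 to 0.627 over the alternatives) and -0.65 for Cxcl3 (SE 0.18, adjusted p = 0.0182, 0.0182 to 0.569).

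Cxcl1 was dominated by passage. Its level was 1.57, 1.56 and 0.333 FPKM in untreated, 1.46, 1.95 and 0.383 in Rspo1-negative and 2.06, 3.4 and 0.653 in Rspo1-positive cells. Every passage 10 library lay below every library of passages 5 and 6. The fall was 1.90 on the log2 scale from passage 5 (SE 0.24, adjusted p = 0.00135) and 2.30 from passage 6 (SE 0.24, adjusted p = 0.000652). At each passage the Rspo1-positive library was the highest, and its differences from both other groups were called with the block and not by group. Over the alternatives the adjusted p was 0.0262 to 0.972 against untreated and 0.0276 to 0.926 against Rspo1-negative cells, and the second was called in 1 of 13 alternatives, the block without the GC and length correction. Cxcl5 fell by 0.98 on the log2 scale from passage 6 to 10 (SE 0.22, adjusted p = 0.0208), a call lost without the Rspo1-negative or the Rspo1-positive library of passage 10 (adjusted p up to 0.0894). The same pair of passages differed by 0.98-, 0.561- and 0.409-fold for Cxcl2 in untreated, Rspo1-negative and Rspo1-positive cells, and Cxcl2 was not called. Csf3, the granulocyte growth factor G-CSF, ranged from 3.44 to 8.84 FPKM with no call. The receptor Cxcr2 itself had at most 4 counts in any library. Cxcl1, Cxcl2 and Cxcl3 are related in sequence, and how reads that map to more than 1 place were counted is not given in the sources used here.

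Ligands of monocytes and macrophages were present throughout. Ccl2, the main monocyte chemokine, was at 2.55, 7.22 and 0.645 FPKM in untreated, 2.91, 5.58 and 2.04 in Rspo1-negative and 6.26, 19.9 and 3.15 in Rspo1-positive cells. Passage 6 was the highest and passage 10 the lowest in all 3 groups. Ccl2 rose by 1.43 from passage 5 to 6 (SE 0.28, adjusted p = 0.0252) and fell by 2.47 on the log2 scale from passage 6 to 10 (SE 0.30, adjusted p = 0.00114). At every passage the Rspo1-positive library was above the untreated one, by 2.45, 2.75 and 4.88 times. The log2 difference of 1.48 (SE 0.80, adjusted p = 0.394) was called with the block, at 1.56 (SE 0.29, adjusted p = 0.00414, 0.00181 to 0.937 over the alternatives).

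Csf1 and Il34 encode the 2 ligands of the macrophage receptor Csf1r. Csf1 was at 3.21, 5.96 and 1.72 FPKM in untreated, 5.4, 7.91 and 3.65 in Rspo1-negative and 8.89, 12.9 and 3.68 in Rspo1-positive cells. It was lowest in untreated cells at each passage, by 2.77, 2.17 and 2.14 times against Rspo1-positive cells. That difference, 1.22 (SE 0.50, adjusted p = 0.23), was called with the block at 1.23 (SE 0.16, adjusted p = 0.000473, 0.000328 to 0.661 over the alternatives). At passage 10 the Rspo1-positive and Rspo1-negative values were nearly equal. Csf1 fell by 0.88 on the log2 scale from passage 5 to 10 (SE 0.16, adjusted p = 0.00904) and by 1.55 from passage 6 (SE 0.17, adjusted p = 0.000657).

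Il34 had a different order of groups. Its level was 19.6, 18.5 and 25.3 FPKM in untreated, 34.1, 34.8 and 44.6 in Rspo1-negative and 26, 26 and 36.4 in Rspo1-positive cells. All Rspo1 libraries were above all untreated ones, and the Rspo1-negative library was the highest at each passage. Il34 rose by 0.81 in Rspo1-negative against untreated cells (SE 0.19, adjusted p = 0.0151), a call lost without the untreated library of passage 5 (adjusted p = 0.054) and with the GC and length correction (0.134), which are within the range of 0.00031 to 0.134 over the alternatives. In Rspo1-positive against untreated cells the log2 difference was 0.48 (SE 0.19, adjusted p = 0.216), called with the block at 0.47 (SE 0.10, adjusted p = 0.0121, 0.00542 to 0.558 over the alternatives). Unlike Csf1, Il34 rose at passage 10, by 0.45 against passage 5 (SE 0.10, adjusted p = 0.0251) and 0.45 against passage 6 (SE 0.10, adjusted p = 0.025). The first call was lost without any 1 of the 6 libraries compared (adjusted p up to 0.142), and the second without any library of passage 10 or the Rspo1-positive library of passage 6 (adjusted p up to 0.138). The receptor Csf1r was measured at 8.17 to 11.7 FPKM from 1034 to 1949 counts in the same libraries.

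Cx3cl1, or fractalkine, is made as a membrane-bound chemokine and binds Cx3cr1. It was at 48.9, 60.8 and 49 FPKM in untreated, 46, 44.1 and 44.6 in Rspo1-negative and 38.7, 33.1 and 33.2 in Rspo1-positive cells. The 3 groups did not overlap, with Rspo1-positive cells lowest and untreated cells highest. Cx3cl1 fell by 0.60 on the log2 scale in Rspo1-positive against untreated cells (SE 0.13, adjusted p = 0.025). The call was lost without the untreated library of passage 6 or the Rspo1-positive library of passage 6 or 10 (adjusted p 0.0653 to 0.143) and in a fit of only the 6 libraries compared (0.0582), with the direction kept in all 13 alternatives. Cx3cr1 had 33, 5 and 0 counts in untreated cells at passages 5, 6 and 10, 17, 10 and 0 in Rspo1-negative and 9, 6 and 0 in Rspo1-positive cells. It was called lower at passage 10, where it had 0 counts in all 3 libraries, which allows up to 3 counts in each.

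Csf2, the growth factor GM-CSF, was at 1.1, 1.52 and 0.495 FPKM in untreated, 2.13, 1.7 and 0.473 in Rspo1-negative and 2.9, 6.14 and 0.815 in Rspo1-positive cells, on 9 to 146 counts. Every passage 10 value was below every earlier one. It fell by 1.72 on the log2 scale from passage 5 (SE 0.36, adjusted p = 0.0161) and by 2.20 from passage 6 (SE 0.36, adjusted p = 0.00493). The Rspo1-positive library was the highest of each passage, and its differences from both other groups were called with the block and not by group. Of its receptor genes, Csf2ra had 150 to 519 counts, and Csf2rb had 0 in every library. Of the exon bases of Csf2, 12.0% are shared with Gm12223.

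Il33, an alarmin of the interleukin 1 family that epithelial nuclei store, showed the largest of the group differences called among the ligand genes. It was at 1.32, 1.33 and 1.98 FPKM in untreated, 3.73, 2.99 and 4.68 in Rspo1-negative and 4.32, 5.46 and 7.96 in Rspo1-positive cells. No untreated library reached the lowest Rspo1 library, while the Rspo1 groups overlapped. Within passages the Rspo1-positive level was 3.26, 4.11 and 4.02 times the untreated one. Il33 rose by 1.93 (SE 0.29, adjusted p = 0.00344) in Rspo1-positive and by 1.26 (SE 0.29, adjusted p = 0.0124) in Rspo1-negative cells against untreated cells, and both calls held in all 13 alternatives. The difference between the Rspo1 groups, 0.67 (SE 0.28, adjusted p = 0.101), was called with the block at 0.65 (SE 0.16, adjusted p = 0.00914), the only 1 of 13 alternatives that called it (adjusted p up to 0.529).

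Between passages 5 and 6 Il33 was not called (log2 difference 0.03, SE 0.16, adjusted p = 0.965). It was higher at passage 10, by 0.63 against passage 5 (SE 0.16, adjusted p = 0.0369) and 0.60 against passage 6 (SE 0.16, adjusted p = 0.0446). Both calls were lost without any 1 of the 6 libraries compared, at adjusted p up to 0.196 and 0.216. The receptor Il1rl1 (ST2) had at most 1 count in any library. Il18, another epithelial member of this family, was at 6.66, 8.24 and 8.09 FPKM in untreated, 6.71, 5.01 and 4.85 in Rspo1-negative and 5.21, 3.54 and 5.25 in Rspo1-positive cells. All untreated libraries were above all Rspo1-positive ones. The log2 difference of -0.71 (SE 0.23, adjusted p = 0.123) was called with the block at -0.73 (SE 0.21, adjusted p = 0.0432, 0.042 to 0.411 over the alternatives).

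**Figure D4:**
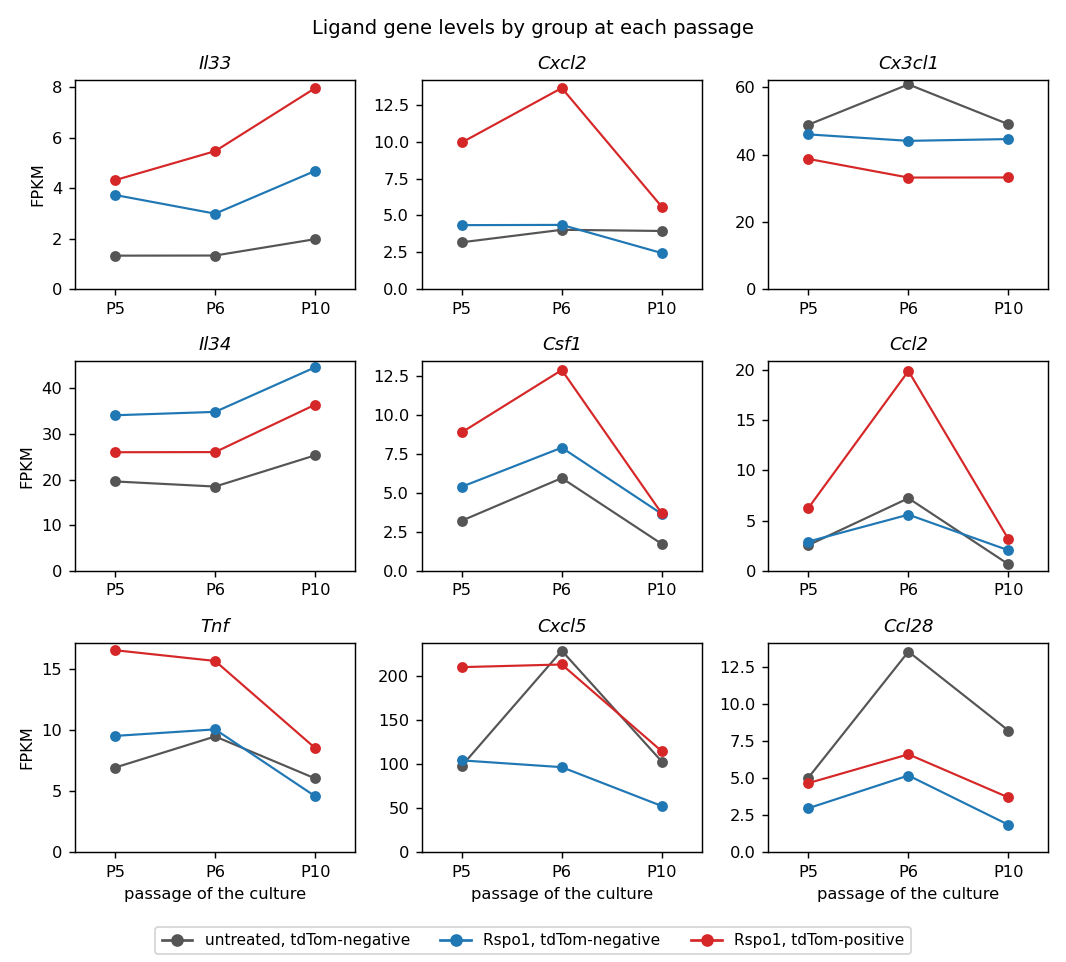
FPKM (linear axes from 0) of 9 ligand genes at passages 5, 6 and 10, 1 library per point, with lines joining the libraries of a group. Il33 and Il34 are highest at passage 10 in each group, Csf1 and Ccl2 peak at passage 6, and Cxcl2 is highest in Rspo1-positive cells at each passage.

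Tnf was at 6.95, 9.5 and 6.06 FPKM in untreated, 9.54, 10.1 and 4.6 in Rspo1-negative and 16.6, 15.7 and 8.55 in Rspo1-positive cells. At each passage the Rspo1-positive library was the highest, but its passage 10 value lay within the range of the other groups. The log2 differences of 0.85 (SE 0.32, adjusted p = 0.193) from untreated and 0.78 (SE 0.32, adjusted p = 0.103) from Rspo1-negative cells were called with the block, at 0.81 (SE 0.17, adjusted p = 0.00847) and 0.80 (SE 0.17, adjusted p = 0.00427). Over the alternatives the adjusted p was 0.00568 to 0.497 for the first and 0.00252 to 0.329 for the second. Tnf fell at passage 10 by 0.71 on the log2 scale against passage 5 (SE 0.17, adjusted p = 0.0284) and by 0.86 against passage 6 (SE 0.17, adjusted p = 0.0123). The first call was lost without the Rspo1-negative or Rspo1-positive library of passage 5 or 10. The second was lost without either of these at passage 10. The Tnf receptor Tnfrsf1a was at a mean of 82.5 FPKM and Tnfrsf1b at 12.9.

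Tnfsf9, the ligand of the costimulatory receptor 4-1BB, went down step by step with passage. It was at 17.4, 11.2 and 5.55 FPKM in untreated, 16.4, 9.62 and 4.89 in Rspo1-negative and 10.8, 7.57 and 4.27 in Rspo1-positive cells. It fell by 0.63 on the log2 scale from passage 5 to 6 (SE 0.14, adjusted p = 0.0415), by 0.92 from 6 to 10 (SE 0.14, adjusted p = 0.00396) and by 1.55 from 5 to 10 (SE 0.14, adjusted p = 0.000316). The Rspo1-positive library was the lowest at each passage, and its log2 difference from untreated cells, -0.60 (SE 0.49, adjusted p = 0.614), was called with the block at -0.55 (SE 0.14, adjusted p = 0.0251, 0.0225 to 0.94 over the alternatives). Of the exon bases of Tnfsf9, 14.9% are shared with Gm11110. Tnfsf12 (TWEAK) and Tnfsf13 (APRIL) are neighbours on chromosome 11 that share 48.3% and 60.1% of their exon bases with the read-through gene Tnfsfm13, so their counts are uncertain. Tnfsf13 ranged from 12.6 to 28.1 FPKM, with all Rspo1-positive libraries below all Rspo1-negative ones. That difference, -0.57 (SE 0.20, adjusted p = 0.0606), was called with the block at -0.58 (SE 0.13, adjusted p = 0.0057, 0.0057 to 0.384 over the alternatives). With the GC and length correction added to the block it was not called. Tnfsf13 fell by 0.48 on the log2 scale from passage 6 to 10 (SE 0.13, adjusted p = 0.0463), a call lost without 5 of the 6 libraries in turn, all but the Rspo1-negative library of passage 6. Tnfsf12 ranged from 4.8 to 7.87 FPKM with no call, and its receptor Tnfrsf12a was at a mean of 195 FPKM.

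The remaining chemokines act mostly on lymphocytes or myeloid cells. Ccl28, a mucosal ligand of Ccr10, was at 5.04, 13.6 and 8.22 FPKM in untreated, 2.98, 5.18 and 1.86 in Rspo1-negative and 4.67, 6.62 and 3.7 in Rspo1-positive cells. Rspo1-negative cells were the lowest and untreated cells the highest at each passage. Ccl28 fell by 1.46 on the log2 scale in Rspo1-negative against untreated cells (SE 0.42, adjusted p = 0.0308). The call was lost without the untreated library of passage 6 or 10 or the Rspo1-negative library of passage 5 or 10 (adjusted p 0.0511 to 0.108), and with the GC and length correction (0.234, the highest of the alternatives). Between the Rspo1 groups it was called higher in Rspo1-positive cells with the block, at 0.68 (SE 0.22, adjusted p = 0.0327, 0.0327 to 0.974 over the alternatives), but with the GC and length correction the log2 difference was -0.05 and with both -0.01. Il34 reversed in the same comparison, from -0.34 with the block to 0.04 with the correction.

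Ccl20, the ligand of Ccr6, was at 2.59, 6.98 and 1.86 FPKM in untreated, 4.23, 3.31 and 1.34 in Rspo1-negative and 7.37, 7.22 and 2.89 in Rspo1-positive cells. Rspo1-positive libraries were the highest at each passage, and the difference from Rspo1-negative cells, 1.003 (SE 0.55, adjusted p = 0.209), was called with the block at 1.02 (SE 0.28, adjusted p = 0.0165, 0.0165 to 0.495 over the alternatives). No other of the 13 alternatives called it, also not the block with the GC and length correction. Ccl20 fell by 1.19 on the log2 scale from passage 5 to 10 (SE 0.29, adjusted p = 0.0297) and by 1.53 from passage 6 to 10 (SE 0.29, adjusted p = 0.0101). Cxcl17, a mucosal chemokine, was at 31.8, 64.3 and 44.3 FPKM in untreated, 30.5, 55 and 43 in Rspo1-negative and 21.9, 40.3 and 31.6 in Rspo1-positive cells. Passage 6 was the highest and Rspo1-positive cells were the lowest throughout. It rose by 0.93 from passage 5 to 6 (SE 0.11, adjusted p = 0.00236) and was 0.53 above passage 5 at passage 10 (SE 0.11, adjusted p = 0.0162). The difference of Rspo1-positive from untreated cells, -0.59 (SE 0.31, adjusted p = 0.373), was called with the block at -0.57 (SE 0.11, adjusted p = 0.00615, 0.00615 to 0.761 over the alternatives), and that from Rspo1-negative cells at -0.42 (SE 0.11, adjusted p = 0.0124, 0.0124 to 0.759 over the alternatives). Of the 13 alternatives, only the block without the GC and length correction called the second.

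Cxcl16, the ligand of Cxcr6, was at 52.3, 61.2 and 45.6 FPKM in untreated, 81.1, 64.3 and 61.3 in Rspo1-negative and 58.7, 68.6 and 52.2 in Rspo1-positive cells, with no call. Of its exon bases, 18.3% are shared with Zmynd15 on the other strand. Ccl25, the ligand of the gut-homing receptor Ccr9, was at 2.1, 1.62 and 2.29 FPKM in untreated, 1.38, 1.24 and 0.826 in Rspo1-negative and 1.84, 1.74 and 1.69 in Rspo1-positive cells. Rspo1-negative cells lay below both other groups without overlap. Ccl25 fell by 0.84 on the log2 scale against untreated cells (SE 0.24, adjusted p = 0.0334), a call lost without the untreated library of passage 5 or 10 or the Rspo1-negative library of passage 6 or 10 (adjusted p 0.0658 to 0.123) and with the correction for GC and length (0.277, the highest of the alternatives; 0.168 with the block added). It was also lost without the filter (0.0887). Cxcr6 and Ccr9 had at most 3 and 15 counts.

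Cxcl14, a chemokine of epithelia, was at 2.18, 1.49 and 0.728 FPKM in untreated, 1.72, 1.8 and 1.24 in Rspo1-negative and 0.855, 1.01 and 0.371 in Rspo1-positive cells. Each group had its lowest value at passage 10, where Cxcl14 was 1.04 lower than at passage 5 (log2 fold change -1.04, SE 0.28, adjusted p = 0.0408). The Rspo1-positive library was below the Rspo1-negative one at each passage, and that difference, -1.06 (SE 0.44, adjusted p = 0.105), was called with the block at -1.13 (SE 0.28, adjusted p = 0.00896, 0.00896 to 0.321 over the alternatives). It was not called with the GC and length correction added to the block. Ccl6 and Ccl9, neighbouring chemokine genes on chromosome 11, were near the lower end of detection, with 2 to 18 and 5 to 82 counts. Ccl9 fell at passage 10 by 1.64 on the log2 scale against passage 5 (SE 0.40, adjusted p = 0.0292) and by 2.13 against passage 6 (SE 0.40, adjusted p = 0.00934). Il7, a growth factor of lymphocytes, had 12 to 88 counts and fell by 1.37 on the log2 scale in Rspo1-negative against untreated cells (SE 0.41, adjusted p = 0.0373). That call was lost without the untreated library of passage 6 or any 1 of the Rspo1-negative libraries (adjusted p 0.0686 to 0.136), and with the GC and length correction (0.36, the highest of the alternatives; 0.257 with the block added).

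Other genes of these pathways were examined from 3 lists. Of 73 receptor and coreceptor genes 37 were tested. In Rspo1-positive against untreated cells 1 rose (3.07% of all genes; 2 with the block, against 6.44%), namely Tnfrsf11b, the decoy receptor osteoprotegerin, by 1.78 (SE 0.18, adjusted p = 0.000687). In the same comparison 4 fell (2.13% of all genes; 11 with the block, against 6.77%), among them Il13ra1 (-0.86), Tnfrsf21 (-0.86) and Il22ra1 (-0.80). Between the Rspo1 groups 4 rose and 6 fell in the Rspo1-positive cells, where 14.6% and 9.78% of all genes did, and 7 and 8 with the block, against 21.5% and 17.4%. The largest were Il12rb2, a receptor chain of interleukin 12 (1.80), Tnfrsf11a, the receptor of RANK ligand (0.90), and Tnfrsf11b (0.74) among the higher and Il4ra (-0.79), Ltbr (-0.71) and Il17rc (-0.66) among the lower. In Rspo1-negative against untreated cells 2 rose and 4 fell (8.0% and 13.9% of all genes), and 4 and 9 with the block (15.5% and 20.0%). The 2 were Tnfrsf11b (1.04) and Il11ra1 (0.66), and the largest falls were in Il12rb2 (-2.20, SE 0.50, adjusted p = 0.013), Tnfrsf21 (-0.86) and Il22ra1 (-0.72). Il12rb2 was a low gene, with 5 to 71 counts in a library and a mean of 0.316 FPKM. Among 14 tested ligands outside the name rule, 2 rose in Rspo1-positive against untreated cells (3.07% of all genes), and 5 with the block (6.44%). The 2 were Tgfb3 (1.63, SE 0.31, adjusted p = 0.0118) and Hmgb1 (0.47, SE 0.11, adjusted p = 0.0356). In Rspo1-negative against untreated cells Tgfb3 alone rose (1.66, SE 0.31, adjusted p = 0.00494), where 8.0% of all genes did, and 4 with the block (15.5%). Between the Rspo1 groups Hmgb1 alone rose in Rspo1-positive cells (0.75, SE 0.11, adjusted p = 0.00228), where 14.6% of all genes did. With the block 2 rose and 1 fell between them (21.5% and 17.4%).

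All 22 cytokine antagonists and genes of NF-kB feedback were tested. At passage 10, 4 were lower than at passage 5 and 8 lower than at passage 6, where 4.5% and 4.05% of all genes were lower. Against passage 6 the largest falls were in Vcam1, a leukocyte adhesion molecule (-1.32, SE 0.14), in Nfkbie, an inhibitor of NF-kB (-1.14, SE 0.18), and in Cish, a feedback inhibitor of cytokine signalling (-0.95, SE 0.20), with adjusted p of 0.000657, 0.00419 and 0.0157. Of the 14 tested other ligands 3 were lower than at passage 5 (4.5% of all genes), Gdf15 (-1.47), Lif (-0.80) and Mif (-0.77), and 1 was higher (4.57%), Clcf1 (0.88). In Rspo1-negative against untreated cells 1 of the 22 rose and 2 fell (8.0% and 13.9% of all genes), and 4 and 5 with the block (15.5% and 20.0%). Between the Rspo1 groups 1 rose and 1 fell in Rspo1-positive cells (14.6% and 9.78%), and 5 and 2 with the block (21.5% and 17.4%). Against untreated cells 0 rose and 1 fell in them (3.07% and 2.13%), and 2 and 1 with the block (6.44% and 6.77%). Nfkbiz, which encodes a nuclear cofactor of NF-kB, was lower in Rspo1-negative than in untreated cells (-1.20, SE 0.19, adjusted p = 0.00232) and 0.87 above the Rspo1-negative level in the Rspo1-positive cells (SE 0.19, adjusted p = 0.00901). Nfkbib, an inhibitor of NF-kB, differed in the other direction, by 0.54 (SE 0.15, adjusted p = 0.0302) and -0.46 (SE 0.15, adjusted p = 0.0479) in these comparisons. Il1rn, the interleukin 1 receptor antagonist, was lower in both Rspo1 groups than in untreated cells, by -0.75 in Rspo1-positive and -0.65 in Rspo1-negative cells.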

How the data were processed

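The 9 libraries were single-end 75 bp RNA sequencing from 100 ng of total RNA of sorted organoid cells, per the labels. Reads were processed with Trimmomatic 0.35, STAR 2.5.1b and featureCounts on GRCm38, per the submitters' processing notes; strand setting and annotation are not given in the sources used here. The deposited tables hold the authors' raw count and FPKM value per gene and library, per the file headers, and how the FPKM were scaled is not given in the sources used here. The authors' deposited comparison tables give log2 fold changes and adjusted p-values from DESeq2.

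Counts were tested with edgeR 4.0.16 (R 4.3.3, quasi-likelihood F-test, TMM scaling) after filterByExpr (minimum count 10, minimum total 15), which kept 17011 genes. All 9 libraries entered 1 fit by group, and passages were compared in a fit of passage and group. P-values were Benjamini-Hochberg adjusted over all 17011 genes, with a threshold of 0.05, and a standard error is the log2 fold change divided by the square root of F. FPKM values entered no test. Same-numbered libraries share a passage, per the labels, and their deviations from group means correlated at 0.123 to 0.573 in 9 pairs, against -0.476 to 0.0826 in 18 pairs of different passages, so the passages pair the libraries. Alternatives were DESeq2 1.42.0, upper-quartile scaling, no filter, the passage as a block, a GC and length offset (loess span 0.5), both of these, only the 6 libraries compared, and leaving out each library. In the group comparisons passage was a term only in the block and in the block with the offset. The script was tested on simulated data.

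Values in every library are given for genes with a mean of at least 1 FPKM or a call in any comparison, with or without the block; genes with at most 3 counts in every library are listed as not detected. From the pathway lists, up to 3 called genes per list and direction and the receptors of named ligands are named. The ligand genes, lists and comparisons were chosen with earlier results of these data known.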

Additional observations from a re-analysis of the deposited data

How the results depend on the processing

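The counts of called ligand genes changed with the setting. Shares of all genes were computed only for the main fits and the block. For the other settings, a change in the ligand genes and a change in calls over all genes thus cannot be told apart. For Rspo1-positive against untreated cells 3 became 14 with the block, 15 with block plus GC and length offset and 7 without the filter. For Rspo1-positive against Rspo1-negative cells 1 became 16, 6 and 7 in the same settings, 3 in the 6 libraries compared and 5 with DESeq2. For Rspo1-negative against untreated cells 5 became 10 with the block, 8 with block and offset, 2 with the offset and 2 in the 6 libraries compared. For passage 6 against 5, 3 became 6 without the filter, with the offset and with DESeq2. Leaving out 1 library, with no passage block for the groups, gave 1 to 2, 1 to 2 and 2 to 4 calls for the group comparisons in this order, 1 to 3 for passage 6 against 5, 3 to 7 for 10 against 5 and 6 to 12 for 10 against 6.

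For 68 results on single genes, 799 alternative values were computed: 613 kept direction and side of the threshold, 69 passed it and 113 fell short of it with the same direction. The 68 include genes called only with the block, which are set against a fit by group that did not call them. Of the 69, 31 are the block fit that selected these genes, and their staying uncalled elsewhere counts as kept. The tally is thus no measure of how firm the calls are. The 4 reversed values were those of Ccl28 (-0.054 with the offset, -0.0111 with offset and block) and Il34 (0.0393 and 0.0302), both between the Rspo1 groups and neither called by group alone. The cause was not tested. With at most 10 counts in place of 3 as the floor, 16 genes in place of 14 were not detected. Depth limited genes such as Ccl6, with 2 to 18 counts. For Rspo1-negative against untreated cells DESeq2 gave Ccl6 no adjusted p, which is counted among the 613 by its direction, and the fit of only the 6 libraries filtered it out.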

Other observations

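Il4, a type 2 interleukin known mainly from lymphoid and mast cells, had 25 to 92 counts in each library. Its level was 3.21, 2.17 and 3.55 FPKM in untreated, 1.14, 1.7 and 2.16 in Rspo1-negative and 3.71, 2.06 and 2.6 in Rspo1-positive cells at passages 5, 6 and 10. All Rspo1-negative libraries lay below all untreated ones, and Il4 was called in none of the 6 comparisons by group or with the block. Its neighbours on chromosome 11, Il13 (53631324 to 53634702) and Il5 (53720794 to 53725106), had at most 3 counts in every library, and Il4 itself lies at 53602982 to 53618669 on the minus strand (GRCm38). Where in the gene these reads fall was not analysed here. Il4ra, which encodes its receptor chain, was at a mean of 55.6 FPKM, and Cd3e, the T cell marker, had at most 5 counts in any library.

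Il17d, a member of the interleukin 17 family, was at 1.26, 0.464 and 0.799 FPKM in untreated, 1.32, 1.74 and 1.82 in Rspo1-negative and 1.05, 1.85 and 1.11 in Rspo1-positive cells. Its Rspo1-negative values were above all untreated ones, without a call. Among receptors of this family, Il17re was at a mean of 40.3 FPKM and Il17rc at 25.4.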
